A study of Mus musculus with 18 samples.

Results

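The genes described here are 34 mouse genes of S phase and DNA replication, taken by name from a list of known replication factors, of 55487 genes in the count table. Each was found by its Ensembl gene identifier, and 34 of 34 had enough counts to be tested. They cover the MCM helicase, the factors that load and start it, the replicative polymerases, the sliding clamp and the enzymes of the lagging strand, nucleotide supply, chromatin assembly, and the cyclin E and E2F1 regulators of S phase entry. The study measured polyadenylated RNA of mouse spleen T cells after sorting by flow cytometry and 72 h of culture with IL-2 (10 ng/ml), anti-CD28 (2 µg/ml) and plate-bound anti-CD3 (2 µg/ml). There were 6 groups of 3 libraries. Treg KO, CD8 KO and CD4 KO libraries came from Foxp3 YFP/cre mice that lack Ebi3, and Treg WT, CD8 WT and CD4 WT libraries came from Foxp3 YFP/cre mice, so the Foxp3 YFP/cre allele is common to all groups. The Ebi3 protein is part of the heterodimeric cytokines IL-35 and IL-27. The labels do not say whether replicates were separate animals or cultures. A p-value therefore weighs a difference against the spread between libraries, which may be technical and was estimated over the 6 groups together.

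Before a cell divides, the MCM2 to MCM7 ring is loaded on replication origins by CDC6 and CDT1, and CDC45 and the GINS complex then turn it into the active helicase. Polymerases alpha, delta and epsilon copy the strands behind it, with PCNA as sliding clamp, and FEN1 and LIG1 join the fragments of the lagging strand. Most of these genes are known targets of E2F transcription factors, which are released from the retinoblastoma protein when a resting T cell is stimulated through its receptor, CD28 and IL-2, so their RNA is low in resting T cells and high in cycling ones.

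The start regions of 4 of the genes are printed because these genes mark the range of the results below: Mcm5 and Mcm6 are helicase subunits with several E2F-type matches, Cdc6 had the largest difference between cell types, and Slbp was the one gene that was never lower in Treg libraries. Each window runs from 250 bases before to 50 bases after the start annotated by RefSeq in GRCm38.p6 and is written 5′ to 3′ on the strand of the gene. Capitals mark E2F-type letters, which were searched as TTTCGCGC, TTTGGCGC, TTTCCCGC and TTTGGCGG on both strands. The windows lie at chr8:75109259-75109558, plus strand, at chr1:128359656-128359955, minus strand, at chr11:98907901-98908200, plus strand, and at chr5:33652525-33652824, minus strand.
Mcm5: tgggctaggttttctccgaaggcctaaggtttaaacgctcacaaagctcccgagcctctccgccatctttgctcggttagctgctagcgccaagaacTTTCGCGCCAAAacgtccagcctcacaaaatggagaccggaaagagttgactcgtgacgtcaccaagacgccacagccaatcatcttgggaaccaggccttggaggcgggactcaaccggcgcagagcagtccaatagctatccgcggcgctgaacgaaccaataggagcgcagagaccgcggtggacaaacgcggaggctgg
Mcm6: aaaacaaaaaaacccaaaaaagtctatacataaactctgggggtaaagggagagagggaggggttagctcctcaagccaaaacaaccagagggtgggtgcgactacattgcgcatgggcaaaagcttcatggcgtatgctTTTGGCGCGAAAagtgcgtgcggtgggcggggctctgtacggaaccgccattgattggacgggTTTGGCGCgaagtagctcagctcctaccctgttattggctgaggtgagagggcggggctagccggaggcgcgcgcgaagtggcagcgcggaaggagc
Cdc6: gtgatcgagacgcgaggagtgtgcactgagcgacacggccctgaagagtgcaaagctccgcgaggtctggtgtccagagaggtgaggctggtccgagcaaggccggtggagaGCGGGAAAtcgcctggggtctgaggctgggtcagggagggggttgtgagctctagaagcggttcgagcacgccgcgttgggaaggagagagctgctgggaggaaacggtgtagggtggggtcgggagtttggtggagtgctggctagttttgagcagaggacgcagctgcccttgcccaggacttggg
Slbp: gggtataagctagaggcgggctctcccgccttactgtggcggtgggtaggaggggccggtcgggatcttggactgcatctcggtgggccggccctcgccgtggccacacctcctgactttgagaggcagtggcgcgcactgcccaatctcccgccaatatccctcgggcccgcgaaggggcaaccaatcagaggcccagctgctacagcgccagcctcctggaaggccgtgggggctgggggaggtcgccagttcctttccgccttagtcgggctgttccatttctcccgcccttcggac
With the start counted as 0, the matches of Mcm5 began at -153 and -149 on opposite strands and overlapped, so they appear as 1 stretch. Those of Mcm6 began at -110, -106 and -47, the first 2 of them overlapping, and the match of Cdc6 began at -138. The window of Cdc6 lay inside its annotated gene span, which begins at 98907801, so its match does not lie upstream of that span. No such letters stood in the window of Slbp.

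RefSeq windows were at hand for 29 of the 34 genes. Of these, 12 held at least 1 E2F-type match (41.4%), against 730 of 27025 genes with a window (2.7%). The 12 were Mcm3, Mcm5, Mcm6, Mcm7, Cdc6, Cdt1, Lig1, Pola1, Pold1, Chaf1a, Hells and Uhrf1. The windows of Mcm7, Cdc6, Dut and E2f1, and the matching windows of Lig1 and Uhrf1, lay wholly inside the annotated gene spans. For such genes the letters near the outermost annotated start were not searched or held no match. CCAAT, the core of the NF-Y motif, stood in the windows of 16 of the 29 genes (55.2%), against 41.1% of all genes with a window. Among 22 genes of G2 and M phase with a window, taken as a list for comparison, 1 held an E2F-type match (4.55%) and 20 held CCAAT (90.9%). A match describes these letters in this window and does not show that a factor binds there.

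Total counts ran from 841892 to 1089003 in the 6 Treg libraries and from 1358671 to 2255950 in the 12 CD8 and CD4 libraries, so values of Treg libraries rest on fewer counts. Ebi3, the targeted gene, was counted in every library. It had 29.2, 34.5 and 24.6 CPM in Treg KO, against 34.99, 25.8 and 40.1 CPM in Treg WT libraries, 27.6, 24.2 and 34.01 CPM in CD8 KO, against 29.1, 28.01 and 29.7 CPM in CD8 WT libraries, and 20.6, 26.1 and 22.5 CPM in CD4 KO, against 60.5, 38.7 and 39.4 CPM in CD4 WT libraries. The CD4 groups did not overlap, and the Treg and the CD8 groups did. On the log2 scale, KO minus WT was -0.20 in Treg, -0.01 in CD8 and -0.98 in CD4 (SE 0.19), with adjusted p = 0.999, 1 and 0.127 by edgeR. The labels do not give the deleted part, and a 3′ tag outside it would check nothing, so KO and WT below mean the libraries labelled so. CPM, the count scaled for depth, used the library size times edgeR's TMM factor.

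Foxp3, the defining gene of regulatory T cells, was counted 0 times or 1 time in a library, also in those labelled Treg. Cd8a ran from 24.9 to 46.7 CPM in Treg libraries, from 143 to 244 CPM in CD8 libraries and from 0 to 1.69 CPM in CD4 libraries. Cd4 ran from 34.4 to 68.0 CPM in Treg libraries, from 0 to 0.509 CPM in CD8 libraries and from 100.1 to 157 CPM in CD4 libraries. Ikzf2, another Treg marker, ran from 34.4 to 71.7 CPM in Treg libraries. It ran from 22.04 to 73.3 CPM in CD8 and from 13.1 to 25.4 CPM in CD4 libraries. Il2ra, Ctla4, Ikzf4 and Tnfrsf18 were lower in every Treg library than in every CD8 and CD4 library, and Lrrc32 overlapped with CD4. The Treg libraries carried both coreceptor genes and nearly no Foxp3, which goes against the label. Whether the Foxp3 YFP/cre allele changes the counting of Foxp3 was not tested. Treg is used here only as the name of those 6 libraries. In a chi-square comparison of counts, 2 of 6 pairs of Treg libraries within a genotype label differed by less than the sampling noise, as did 4 of 9 pairs across the KO and WT labels, whereas 0 of 12 within-group CD8 and CD4 pairs did. Treg WT replicates 1 and 2, and Treg KO replicates 1 and 3, were therefore counted as 1 sample each in a mean and SD, which leaves n = 2 per Treg group. Fewer counts in Treg libraries give this test less power, so such pairs, called near-identical below, are not shown to be the same sample.

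The first comparison asks how the level of these genes differed between the 3 cell labels under the same stimulation. Their summed level was 1539, 1388 and 1526 CPM in Treg KO libraries and 1484, 1474 and 1429 CPM in Treg WT libraries. It was 3899, 4198 and 3573 CPM in CD8 KO, 4843, 4774 and 4214 CPM in CD8 WT, 4313, 4147 and 4922 CPM in CD4 KO, and 3015, 4251 and 4243 CPM in CD4 WT libraries. Each Treg library lay below each CD8 and each CD4 library. As means, Treg KO libraries had 1460.4 ± 102 CPM (SD, n = 2) and Treg WT libraries 1454 ± 35.3 CPM (SD, n = 2), which was 37.5% of CD8 KO and 31.5% of CD8 WT, and 32.7% of CD4 KO and 37.9% of CD4 WT. In bulk RNA, fewer cycling cells and less of the RNA per cell cannot be told apart.

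**Figure D1:**
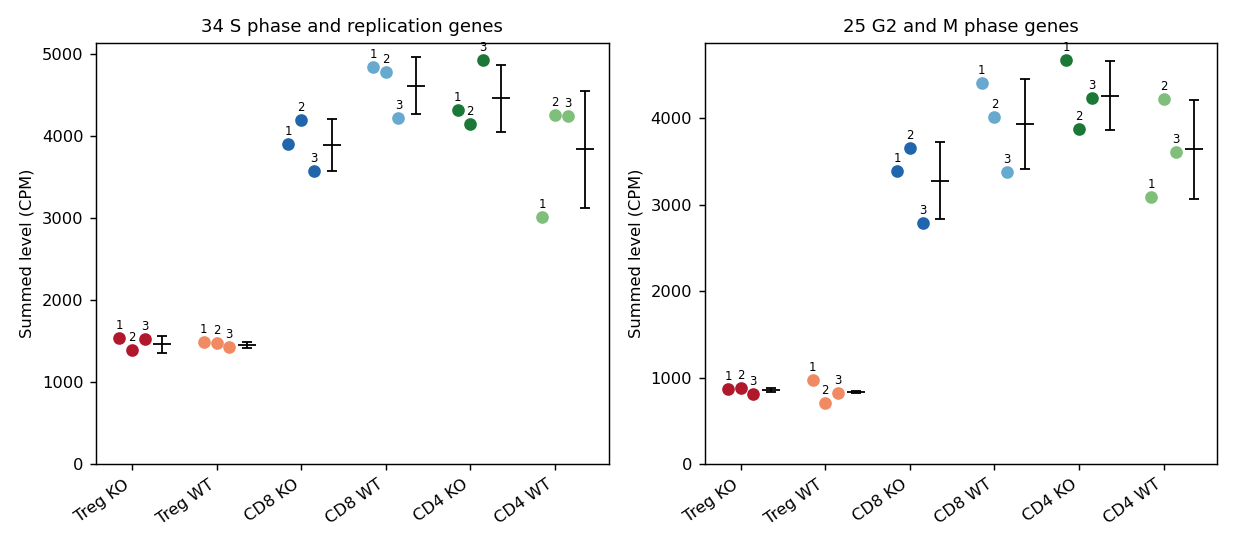
Summed level of the 34 replication genes (left) and of 25 G2 and M phase genes (right) in CPM on linear axes from 0, by library; each numbered point is 1 library and the black bars beside it are the group mean ± SD (n = 2 for Treg groups, n = 3 for the others). The 6 Treg libraries sit between 1388 and 1539 CPM in the left panel, below all CD8 and CD4 libraries.

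Of the 34 genes, 33 were lower in Treg KO than in CD4 KO libraries and 0 were higher (adjusted p under 0.05 by the quasi-likelihood test of edgeR), beside 20.3% of all 12693 tested genes called lower there and 48% called in either direction. In Treg WT against CD4 WT libraries 32 were lower and 1 was higher, beside 18.2% of all genes called lower, 24.8% called higher and 43% called in either direction. Against CD8, 33 were lower and 0 higher in KO libraries, beside 19% of all genes called lower, and 33 were lower and 0 higher in WT libraries, beside 21.4%. The median log2 fold change of the 34 genes was -1.79 against CD4 KO, -1.52 against CD4 WT, -1.58 against CD8 KO and -1.92 against CD8 WT, where the median over all tested genes was 0.10, 0.05, 0.04 and 0.10. Of the 34 genes, 32 were called lower in all 4 comparisons, which share Treg libraries in pairs. How many of all tested genes were called lower in all 4 was not counted. All Treg libraries lay below all libraries compared for 33 genes against CD4 KO (24.5% of all tested genes did), 32 against CD4 WT (21.6%), 33 against CD8 KO (25.3%) and 33 against CD8 WT (25.1%). A log2 fold change above 0 was found for 1 of the 34 each time, beside 53.4% of all genes against CD4 WT. The fit counted each Treg library as 1 of 3.

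The KO and the WT comparison of Treg with the same cell label use different libraries, some of which are near-identical across the Treg labels, and their log2 fold changes had the same sign for 34 of 34 genes against CD4 and for 34 of 34 against CD8. Across genes, which are not independent replicates, Pearson's r was 0.92 against CD4 and 0.90 against CD8, given as a description. The widest gap was 0.93 log2 units for Cdc6 against CD4 and 0.81 for Pole against CD8. The falls were past 2-fold for 27 genes against CD4 KO, 26 against CD4 WT, 25 against CD8 KO and 28 against CD8 WT, and past 4-fold for 9, 8, 6 and 13. The shares of all tested genes that fell so far were not counted.

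**Figure D2:**
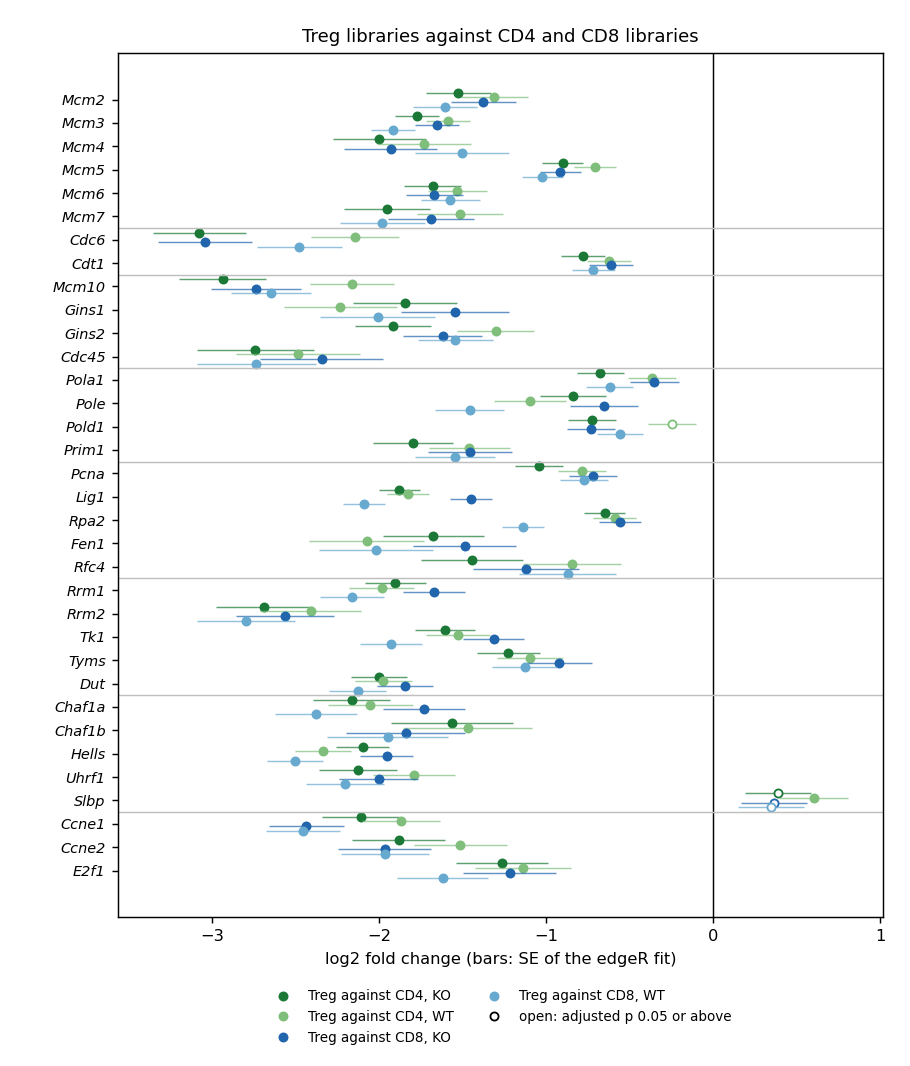
Log2 fold change of each of the 34 genes in Treg libraries against CD4 KO, CD4 WT, CD8 KO and CD8 WT libraries (horizontal axis, log2 units), with bars for the SE of the edgeR fit, filled points for adjusted p under 0.05 and open points otherwise; horizontal lines part the role groups. All genes but Slbp lie left of 0 in each comparison, from Slbp at 0.60 against CD4 WT to Cdc6 at -3.08 against CD4 KO.

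The MCM helicase genes were lower in all 4 comparisons, 6 of 6, with log2 fold changes from -1.999 for Mcm4 to -0.71 for Mcm5. Mcm7, the subunit with the most counts, had 101, 83.3 and 108 CPM in Treg KO and 81.6, 117 and 113 CPM in Treg WT libraries. It had 344, 352 and 242 CPM in CD8 KO and 406, 450.1 and 381 CPM in CD8 WT libraries, and 293, 333 and 499.7 CPM in CD4 KO and 209, 348 and 334 CPM in CD4 WT libraries. The highest Treg library, at 117 CPM, lay below the lowest CD8 or CD4 library, at 209 CPM, and the log2 fold changes were -1.95 against CD4 KO, -1.52 against CD4 WT, -1.69 against CD8 KO and -1.98 against CD8 WT (highest adjusted p = 0.000213). Mcm5 fell least among the 6, with log2 fold changes of -1.02 to -0.71. Mcm2, Mcm3 and Mcm6 lay between, at -1.61 to -1.31, -1.92 to -1.59 and -1.68 to -1.53.

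The 2 licensing factors that load the helicase differed in the size of their fall. Cdc6, the ATPase that brings the MCM ring to the origin, had 6.08, 6.70 and 7.37 CPM in Treg KO and 12.96, 11.1 and 7.65 CPM in Treg WT libraries. It had 52.6, 55.1 and 59.9 CPM in CD8 KO and 55.7, 61.1 and 56.4 CPM in CD8 WT libraries, and 45.9, 55.9 and 70.2 CPM in CD4 KO and 32.1, 51.7 and 51.2 CPM in CD4 WT libraries. Every Treg library was under every CD8 and CD4 library, and the log2 fold changes were -3.08 against CD4 KO, -2.15 against CD4 WT, -3.04 against CD8 KO and -2.48 against CD8 WT, among the largest of the 34 genes. Cdt1, its partner in loading, whose protein is degraded once S phase begins, had 82.7, 63.2 and 72.4 CPM in Treg KO and 75.2, 81.1 and 70.7 CPM in Treg WT libraries. It had 114, 114 and 104 CPM in CD8 KO and 135, 115 and 123 CPM in CD8 WT libraries, and 125, 114 and 134 CPM in CD4 KO and 103, 125 and 119 CPM in CD4 WT libraries. The Treg libraries lay below the libraries of the same genotype without overlap, and the log2 fold changes were -0.78 to -0.61 (highest adjusted p = 0.000281), while those of Cdc6 were -3.08 to -2.15.

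All 4 helicase activation genes were lower in each comparison, with group medians of -2.33 against CD4 KO, -2.20 against CD4 WT, -1.98 against CD8 KO and -2.33 against CD8 WT. Mcm10, which helps the loaded helicase to open DNA, had 4.86, 11.5 and 11.05 CPM in Treg KO and 19.4, 13.5 and 8.60 CPM in Treg WT libraries. It had 56.9, 72.6 and 57.96 CPM in CD8 KO and 90.3, 86.1 and 76.6 CPM in CD8 WT libraries, and 73.02, 59.1 and 82.8 CPM in CD4 KO and 46.6, 66.7 and 64.7 CPM in CD4 WT libraries. The Treg values were 4 to 15 counts per library, and the log2 fold changes were -2.94 to -2.16 (highest adjusted p = 4.11e-08). Cdc45, a subunit of the active helicase, had 8.51, 4.79 and 8.59 CPM in Treg KO and 14.3, 3.69 and 3.82 CPM in Treg WT libraries. It had 41.7, 42.2 and 25.9 CPM in CD8 KO and 50.2, 49.9 and 38.6 CPM in CD8 WT libraries, and 46.4, 46.5 and 51.00 CPM in CD4 KO and 24.04, 46.9 and 42.7 CPM in CD4 WT libraries. Its Treg values rest on 3 to 11 counts, Treg WT replicate 1 being the highest, and its log2 fold changes were -2.74 to -2.35. Gins1 and Gins2, subunits of the GINS complex, were at -2.23 to -1.55 and -1.92 to -1.30.

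The polymerase genes had the smallest group medians, -0.78 against CD4 KO, -0.73 against CD4 WT, -0.69 against CD8 KO and -1.04 against CD8 WT. Pola1, the catalytic subunit of the priming polymerase alpha, had 98.5, 76.6 and 101 CPM in Treg KO and 104, 102 and 87.9 CPM in Treg WT libraries. It had 125, 123 and 102 CPM in CD8 KO and 166, 159.9 and 123 CPM in CD8 WT libraries, and 136, 142 and 159.6 CPM in CD4 KO and 106, 129.5 and 139 CPM in CD4 WT libraries. All Treg libraries lay below the others of the same genotype. The log2 fold changes were -0.68 against CD4 KO, -0.37 against CD4 WT, -0.35 against CD8 KO and -0.62 against CD8 WT. The call of Pola1 against CD8 KO (adjusted p = 0.0467) and that against CD4 WT (adjusted p = 0.038) were lost when 1 library was left out: the first without CD8 KO replicate 1 (0.122), CD8 KO replicate 2 (0.109), Treg KO replicate 1 (0.0506) or Treg KO replicate 2 (0.267), and the second without CD4 WT replicate 2 (0.0787), CD4 WT replicate 3 (0.1399), Treg WT replicate 2 (0.0548) or Treg WT replicate 3 (0.165). Both were also lost with DESeq2, with limma-voom and with the near-identical pairs summed. Pold1, the catalytic subunit of polymerase delta, was lower in 3 comparisons and had the log2 value -0.25 (SE 0.14, adjusted p = 0.165) against CD4 WT. Pole, the catalytic subunit of polymerase epsilon, was at -1.46 to -0.65, and Prim1, the primase subunit, at -1.80 to -1.45; the call of Pole against CD8 KO was lost without Treg KO replicate 1 (adjusted p = 0.0501).

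All 5 genes of the clamp, its loader and the lagging strand were lower in each comparison. Lig1, the ligase that seals lagging strand fragments and the gene with the most counts of the 34, had 198, 173 and 182 CPM in Treg KO and 168, 162 and 161 CPM in Treg WT libraries. It had 513, 567 and 432 CPM in CD8 KO and 738, 776 and 581 CPM in CD8 WT libraries, and 725, 571 and 735 CPM in CD4 KO and 513, 633 and 593 CPM in CD4 WT libraries. The highest Treg library was below the lowest CD8 or CD4 library. The log2 fold changes were -1.88 against CD4 KO, -1.83 against CD4 WT, -1.45 against CD8 KO and -2.09 against CD8 WT (highest adjusted p = 2.67e-10). Rpa2, a subunit of the single-strand binding protein RPA, differed less, at -1.14 to -0.56. Pcna, the sliding clamp, was at -1.04 to -0.72, Rfc4, a clamp loader subunit, at -1.44 to -0.85, and Fen1, the flap nuclease, at -2.08 to -1.49. The Rfc4 call against CD4 WT was lost without CD4 WT replicate 3 (adjusted p = 0.0760) or Treg WT replicate 3 (0.0999), and that against CD8 WT without CD8 WT replicate 1 (0.0732) or Treg WT replicate 3 (0.0746). Pcna has pseudogenes that could take or give reads, as does Tyms.

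Nucleotide supply genes were lower in 5 of 5 cases in each comparison, with group medians of -1.90 against CD4 KO, -1.98 against CD4 WT, -1.67 against CD8 KO and -2.13 against CD8 WT. Dut, which removes dUTP, had 89.97, 69.9 and 87.2 CPM in Treg KO and 69.98, 86.03 and 78.4 CPM in Treg WT libraries. It had 297, 333 and 252 CPM in CD8 KO and 368, 335 and 326 CPM in CD8 WT libraries, and 317, 319 and 346 CPM in CD4 KO and 208, 349 and 361 CPM in CD4 WT libraries. The highest Treg library had 89.97 CPM and the lowest other library, CD4 WT replicate 1, had 208 CPM. Rrm2, the regulated subunit of ribonucleotide reductase, had 19.5, 19.1 and 22.1 CPM in Treg KO and 15.6, 17.2 and 23.9 CPM in Treg WT libraries. It had 108, 143 and 108 CPM in CD8 KO and 144, 131 and 130.03 CPM in CD8 WT libraries, and 112, 132 and 149 CPM in CD4 KO and 56.1, 112 and 136 CPM in CD4 WT libraries. Its log2 fold changes were -2.69 against CD4 KO, -2.41 against CD4 WT, -2.56 against CD8 KO and -2.80 against CD8 WT, beside -2.16 to -1.67 for Rrm1, the large subunit of the same enzyme. Tk1, thymidine kinase, was at -1.93 to -1.32, and Tyms, thymidylate synthase, at -1.23 to -0.92.

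Among the 5 genes of histone supply and chromatin, 4 were lower in each comparison and Slbp was not. Hells, a chromatin remodeller needed for DNA methylation, had 49.8, 35.4 and 45.4 CPM in Treg KO and 38.9, 29.5 and 33.4 CPM in Treg WT libraries. It had 155, 192 and 155 CPM in CD8 KO and 225, 175 and 178 CPM in CD8 WT libraries, and 182, 186 and 187 CPM in CD4 KO and 141, 199 and 172 CPM in CD4 WT libraries. The log2 fold changes of Hells were -2.10 against CD4 KO, -2.34 against CD4 WT, -1.96 against CD8 KO and -2.51 against CD8 WT. Chaf1a and Chaf1b, subunits of the CAF-1 complex that places histones on new DNA, were at -2.38 to -1.73 and -1.95 to -1.47, and Uhrf1, which recruits the maintenance methyltransferase, at -2.21 to -1.79. Slbp, which binds the stem-loop of histone mRNA, had 49.8, 38.3 and 35.6 CPM in Treg KO and 51.8, 36.9 and 38.2 CPM in Treg WT libraries. It had 29.8, 30.9 and 34.97 CPM in CD8 KO and 30.1, 36.7 and 32.1 CPM in CD8 WT libraries, and 27.99, 29.8 and 36.5 CPM in CD4 KO and 36.4, 25.6 and 22.5 CPM in CD4 WT libraries. Against CD4 WT its log2 fold change was 0.60 (SE 0.21, adjusted p = 0.0182 by edgeR), the only call above 0. That call was lost with total counts in place of TMM (adjusted p = 0.0528) and with no filter on low counts. It was also lost without Treg WT replicate 1 (adjusted p = 0.145), CD4 WT replicate 2 (0.0690) or CD4 WT replicate 3 (0.103). In the other comparisons Slbp had log2 fold changes of 0.39 against CD4 KO, 0.36 against CD8 KO and 0.35 against CD8 WT, none past the threshold.

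The 3 regulators of S phase entry were lower in each comparison. Ccne1, cyclin E1, the CDK2 partner at the start of S phase, had 8.51, 13.4 and 9.82 CPM in Treg KO and 11.7, 9.83 and 12.4 CPM in Treg WT libraries. It had 56.3, 66.4 and 53.7 CPM in CD8 KO and 70.8, 60.1 and 57.8 CPM in CD8 WT libraries, and 41.98, 44.9 and 53.8 CPM in CD4 KO and 42.3, 38.2 and 45.6 CPM in CD4 WT libraries. The Treg libraries, at 7 to 14 counts each, lay below all others. The log2 fold changes of Ccne1 were -2.11 against CD4 KO, -1.87 against CD4 WT, -2.44 against CD8 KO and -2.46 against CD8 WT. Ccne2, cyclin E2, was at -1.97 to -1.52, and E2f1, a transcription factor of the E2F family, at -1.62 to -1.14. Genes with an E2F-type match in the window and genes without one had medians of -1.83 and -1.61 against CD4 KO, -1.56 and -1.47 against CD4 WT, -1.66 and -1.45 against CD8 KO, and -1.95 and -1.93 against CD8 WT, for 12 genes with and 17 without, given as a description.

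**Figure D3:**
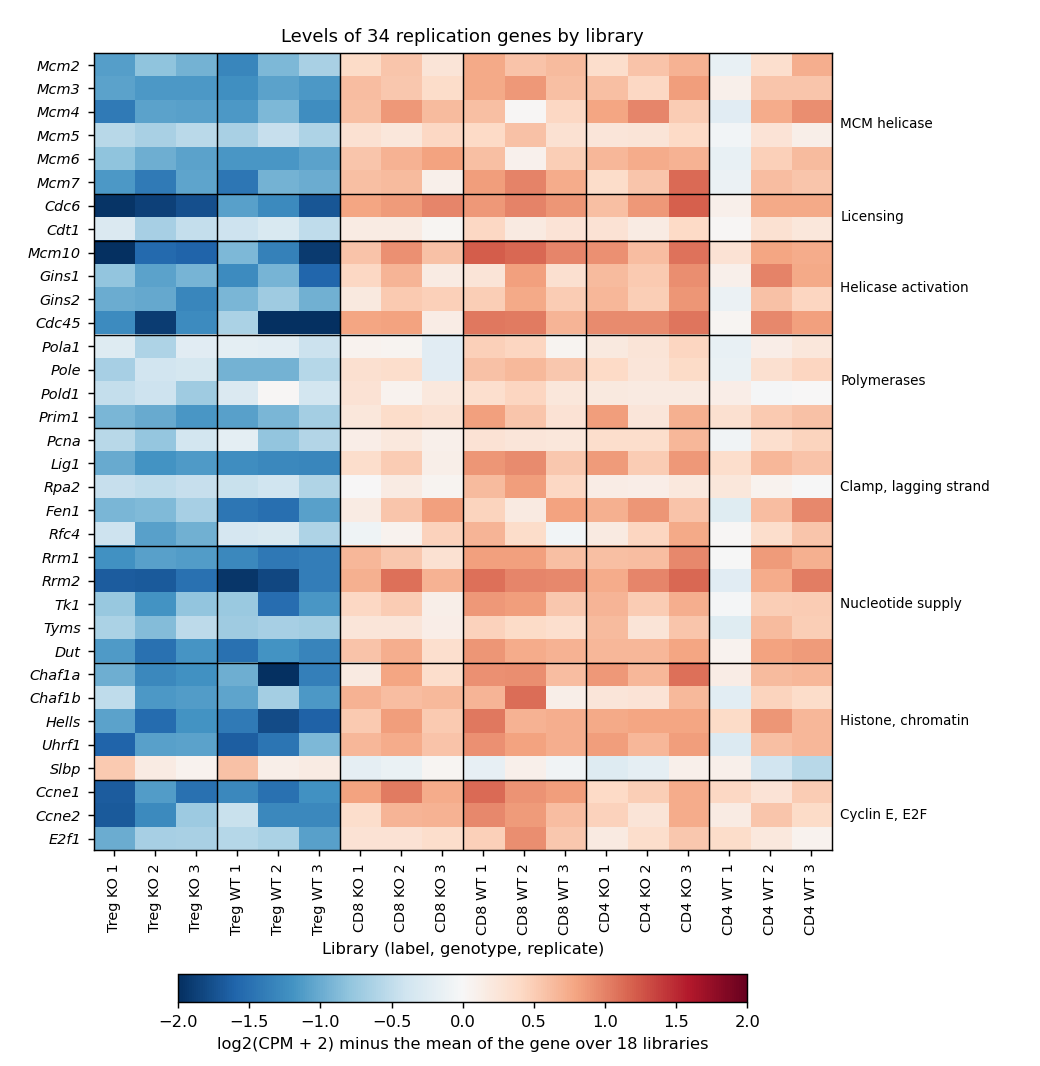
Level of each of the 34 genes (rows, by role) in each of the 18 libraries (columns), as log2(CPM + 2) minus the mean of that gene over all libraries; colours end at -2 and 2. The 6 Treg columns are below the mean of the gene in all rows but Slbp and 1 library of Pold1.

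Other genes of the same pathways, taken as lists, are given by count. Of all tested genes, 20.3% were called lower and 27.8% higher against CD4 KO, and 18.2% and 24.8% against CD4 WT. Against CD8 KO these shares were 19% and 25.1%, and against CD8 WT 21.4% and 28.8%. Of 59 further replication genes, 44 were lower and 2 higher in Treg against CD4 KO libraries, 42 and 3 against CD4 WT, 42 and 2 against CD8 KO, and 41 and 2 against CD8 WT, with medians of -1.10, -0.96, -1.03 and -1.19. Orc1, a subunit of the origin recognition complex, had 7.29, 5.74 and 8.59 CPM in Treg KO and 3.89, 8.60 and 5.73 CPM in Treg WT libraries, against 42.9, 40.2 and 50.5 CPM in CD4 KO and 26.2, 45.9 and 32.6 CPM in CD4 WT libraries. Clspn, the checkpoint adaptor claspin, was at -2.63 against CD4 KO and -2.62 against CD4 WT on the log2 scale. In the other direction, Samhd1, which degrades dNTPs, was higher in Treg libraries by 0.52 against CD4 KO (adjusted p = 0.000902) and by 0.84 against CD8 WT (adjusted p = 2.35e-06).

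All 25 genes of the G2 and M phase list were lower in each comparison, with medians of -2.43 against CD4 KO, -2.22 against CD4 WT, -2.10 against CD8 KO and -2.45 against CD8 WT. Over all tested genes, 20.3%, 18.2%, 19% and 21.4% were called lower in these comparisons. Mki67, the marker of cycling cells, had 76.6, 67.98 and 90.8 CPM in Treg KO and 81.6, 50.4 and 63.1 CPM in Treg WT libraries. It had 204, 230.3 and 194 CPM in CD8 KO and 308, 288 and 232 CPM in CD8 WT libraries, and 309, 240.4 and 282 CPM in CD4 KO and 299, 253 and 218 CPM in CD4 WT libraries. Treg libraries did not overlap the others. Per 100 counts of the G2 and M phase genes, the 34 replication genes had 170.4 ± 17.1 counts in Treg KO and 177 ± 4.18 in Treg WT (SD, n = 2 each), 119 ± 7.64 in CD8 KO and 118 ± 7.44 in CD8 WT, and 105 ± 12.1 in CD4 KO and 105 ± 10.7 in CD4 WT libraries (SD, n = 3 each). In this ratio all 6 Treg libraries lay above all 12 others.

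Among 25 tested genes of cell cycle control, 15 were lower and 3 higher in Treg against CD4 KO libraries, 17 and 3 against CD4 WT, 17 and 3 against CD8 KO, and 15 and 3 against CD8 WT. Of all tested genes, 20.3%, 18.2%, 19% and 21.4% were called lower in these comparisons, and 27.8%, 24.8%, 25.1% and 28.8% higher. The 3 higher genes were Ccnd1, Cdkn1b and E2f5 each time. Cdkn1b, the p27 inhibitor of cyclin E and CDK2, had 184, 164 and 174 CPM in Treg KO and 172, 166 and 177 CPM in Treg WT libraries. It had 94.8, 77.8 and 84.3 CPM in CD8 KO and 63.2, 64.7 and 94.4 CPM in CD8 WT libraries, and 67.8, 85.2 and 70.7 CPM in CD4 KO and 101, 82.2 and 93.4 CPM in CD4 WT libraries. Its log2 fold changes were 1.22 against CD4 KO, 0.91 against CD4 WT, 1.02 against CD8 KO and 1.21 against CD8 WT, and the Treg libraries did not overlap the others. Ccna2, cyclin A2, which acts in S and G2 phase, was at -2.86 to -2.47 in the same comparisons.

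Genes of other cells were counted beside these. The summed level of 11 B cell markers ran from 4829 to 5324 CPM in Treg libraries, from 2677 to 5788 CPM in CD8 libraries and from 3206 to 6538 CPM in CD4 libraries, with Ighm the most abundant and none of the 11 at 0 in any Treg library. Of these 11 markers 6 were higher in Treg than in CD4 KO libraries, 3 than in CD4 WT, 3 than in CD8 KO and 8 than in CD8 WT, beside 27.8%, 24.8%, 25.1% and 28.8% of all tested genes called higher. The hemoglobin genes summed to 1181 to 1257 CPM in Treg, 625 to 1466 CPM in CD8 and 746 to 1498 CPM in CD4 libraries. A list of 9 T cell genes was made of T cell receptor complex genes, Lck and Thy1. They summed to 1228 to 1705 CPM in Treg, 1579.8 to 2818 CPM in CD8 and 1387 to 2317 CPM in CD4 libraries. Of them 4, 1, 1 and 6 were lower in Treg in the same comparisons, beside 20.3%, 18.2%, 19% and 21.4% of all tested genes. Per 100 counts of those 9 genes, the replication genes had 92.6 ± 15.8 counts in Treg KO and 99.99 ± 19.4 in Treg WT (SD, n = 2 each), 206 ± 18.1 in CD8 KO and 189 ± 22.7 in CD8 WT, and 212 ± 9.02 in CD4 KO and 219 ± 6.94 in CD4 WT libraries (SD, n = 3 each). In this ratio all 6 Treg libraries lay below all 12 others. Beyond these values the part of other cells in the Treg differences was not tested.

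**Figure D4:**
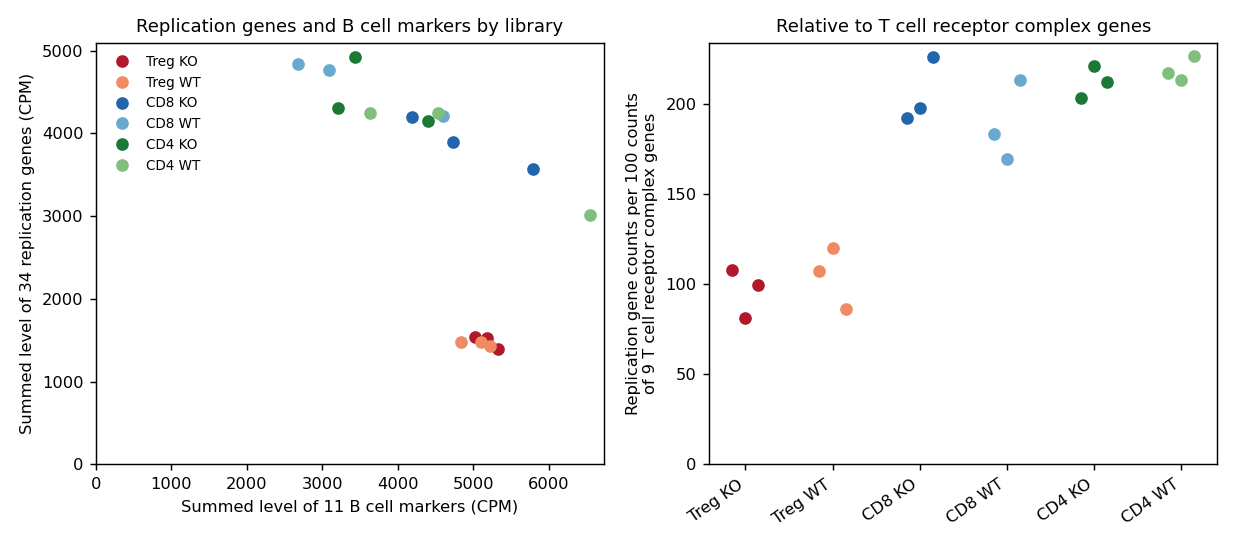
Left, summed level of the 34 replication genes against that of 11 B cell markers (both CPM, linear axes from 0), 1 point per library. Right, counts of the replication genes per 100 counts of 9 T cell genes, by group. The axis names these T cell receptor complex genes, but they include Lck and Thy1. On the left, CD4 WT replicate 1 has the most B cell marker RNA (6538 CPM) and the lowest replication sum outside Treg (3015 CPM); on the right the Treg libraries run from 81.4 to 120.02 and the others from 169 to 227.

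The next comparison sets the libraries labelled KO against those labelled WT within each cell label. In CD8 libraries, 31 of the 34 log2 fold changes of KO against WT were below 0 and 3 were above, beside 47.8% of all tested genes below 0 and 49.7% above. The median was -0.20, beside 0 over all tested genes. Of the 34, 1 was lower at the threshold and 0 were higher, beside 0.11% of all tested genes called lower and 0.0551% called higher. In 11 of the 34 every CD8 KO library lay under every CD8 WT library, beside 8.19% of all tested genes, and in 0 of them above, beside 9.17%.

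The gene that fell was Rpa2 (ENSMUSG00000028884, chromosome 4, 132768332 to 132778752, plus strand, GRCm38). It had 118, 132 and 122 CPM in CD8 KO libraries, against 182, 210.3 and 157 CPM in CD8 WT libraries. The groups did not overlap, and the log2 fold change was -0.56 (SE 0.11, adjusted p = 0.0316) by edgeR. In the other labels the same gene had 130.3, 129 and 136 CPM in CD4 KO, against 137, 123 and 117 CPM in CD4 WT, and 85.1, 82.3 and 84.7 CPM in Treg KO, against 85.5, 88.5 and 76.5 CPM in Treg WT libraries, both overlapping. The call in CD8 was lost in 7 of 16 alternatives, with adjusted p up to 0.619. It was lost without CD8 WT replicate 1 (adjusted p = 0.0530 by edgeR), CD8 WT replicate 2 (0.411) or CD8 KO replicate 3 (0.322). Calls over all tested genes, 21 in the main fit, were 8, 0 and 0 without those libraries.

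Of the other genes, Lig1 came nearest, with the log2 value -0.47 (SE 0.11, adjusted p = 0.0593). Pole was at -0.44 (SE 0.16, adjusted p = 0.161), with 49.8, 51.00 and 33.5 CPM in CD8 KO, against 60.2, 63.1 and 58.3 CPM in CD8 WT libraries. Pole had 52.5, 47.03 and 52.4 CPM in CD4 KO, against 35.7, 49.8 and 53.99 CPM in CD4 WT, and 24.3, 29.7 and 30.7 CPM in Treg KO, against 19.4, 19.7 and 25.8 CPM in Treg WT libraries. The highest value was that of Mcm4, at 0.34 (SE 0.21, adjusted p = 0.449), with 139, 167 and 142 CPM in CD8 KO, against 139.5, 92.7 and 122 CPM in CD8 WT libraries, which overlap. Mcm4 had 158, 181 and 131 CPM in CD4 KO, against 77.96, 154 and 176 CPM in CD4 WT, and 32.8, 42.1 and 41.7 CPM in Treg KO, against 40.2, 47.9 and 37.3 CPM in Treg WT libraries. The polymerase group had the lowest median, -0.32, and the licensing pair the median nearest to 0, -0.11; 0 genes passed in either.

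In CD4 libraries the values lay on the other side: 34 of 34 log2 fold changes of KO against WT were above 0, beside 48.2% of all tested genes above 0 and 49.4% below, with a median of 0.18 beside 0 over all tested genes. By edgeR 0 of the 34 passed the threshold, beside 0% of all tested genes, and by DESeq2 and limma-voom 0 passed as well. In 3 of the 34 every CD4 KO library lay above every CD4 WT library, beside 4.89% of all tested genes, and in 0 below, beside 4.71%. Chaf1a was highest, at 0.39 (SE 0.16, adjusted p = 0.666), with 79.1, 68.5 and 94.1 CPM in CD4 KO, against 47.4, 67.2 and 68.6 CPM in CD4 WT libraries. It had 48.8, 75.2 and 55.1 CPM in CD8 KO, against 82.3, 83.00 and 66.7 CPM in CD8 WT, and 20.7, 16.3 and 17.2 CPM in Treg KO, against 20.7, 8.60 and 15.3 CPM in Treg WT libraries. Gins1 was nearest to 0, at 0.01, with 29.3, 27.2 and 36.5 CPM in CD4 KO, against 19.7, 38.2 and 32.1 CPM in CD4 WT libraries. It had 24.9, 30.4 and 20.6 CPM in CD8 KO, against 22.1, 33.6 and 23.2 CPM in CD8 WT, and 9.73, 7.66 and 8.59 CPM in Treg KO, against 6.48, 8.60 and 4.78 CPM in Treg WT libraries, with overlap in every label. CD4 WT replicate 1 held the lowest of the 6 CD4 values for 28 of the 34 genes and CD4 KO replicate 3 the highest for 22. Without CD4 WT replicate 1, 25 of the 34 were above 0 and the median was 0.09.

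In Treg libraries 18 of the 34 log2 fold changes of KO against WT were above 0 and 16 below, beside 49% and 51% of all tested genes. The median was 0.01, and 0 passed by edgeR, DESeq2 or limma-voom, beside 0% of all tested genes. Fen1 was highest, at 0.58 (SE 0.46, adjusted p = 0.999), with 12.2, 12.4 and 14.7 CPM in Treg KO, against 7.78, 7.37 and 10.5 CPM in Treg WT libraries, from 6 to 13 counts each. Fen1 had 27.6, 37.1 and 45.03 CPM in CD8 KO, against 34.1, 28.01 and 44.5 CPM in CD8 WT, and 41.5, 47.03 and 37.4 CPM in CD4 KO, against 20.4, 38.7 and 49.5 CPM in CD4 WT libraries, with overlap within both labels. Cdc6 was lowest, at -0.61 (SE 0.43, adjusted p = 0.999), from 5 to 10 counts each. The groups did not overlap for 3 genes that were above and 3 that were below, beside 4.46% and 4.94% of all tested genes. The libraries that are near-identical across the genotype labels are part of this comparison. Averaged over the 3 labels, the KO against WT median was -0.00331. By the same 3 tools 0 of the 34 passed the threshold, beside 0% of all tested genes by edgeR.

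**Figure D5:**
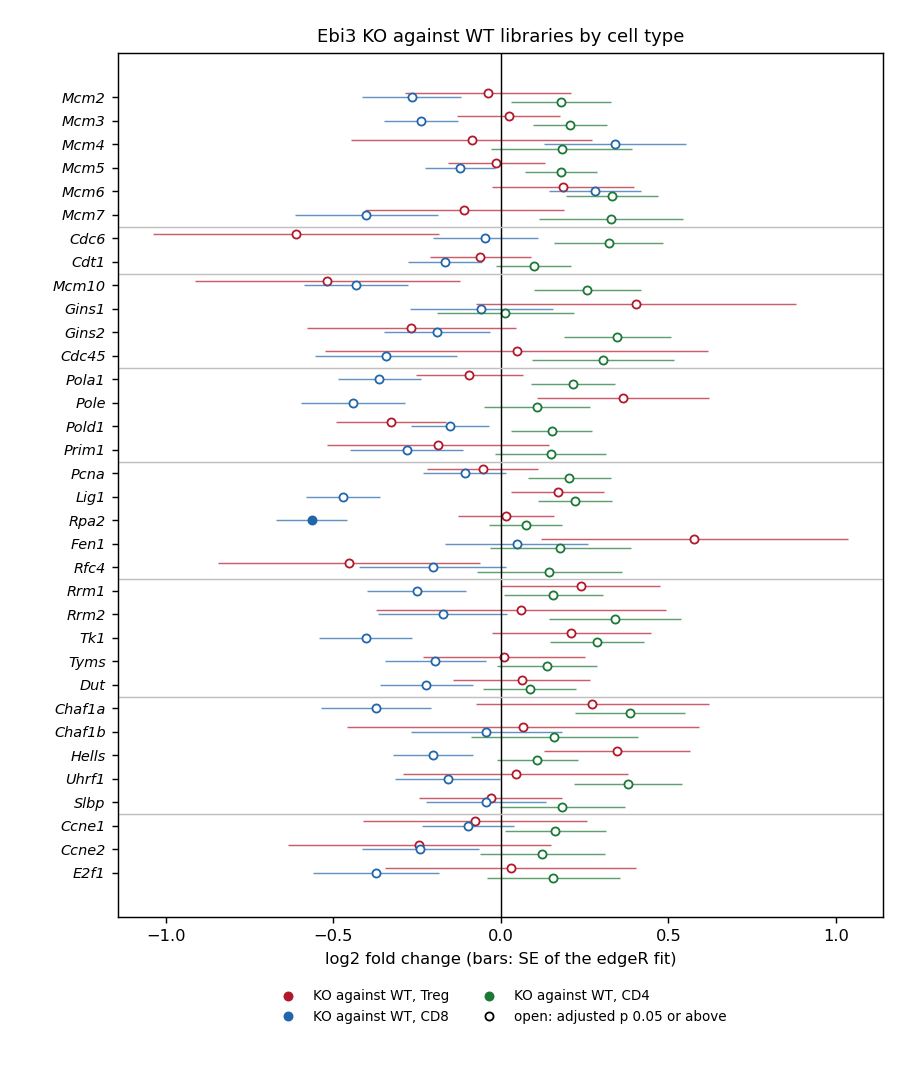
Log2 fold change of KO against WT for each of the 34 genes in Treg, CD8 and CD4 libraries (horizontal axis, log2 units), with bars for the SE of the edgeR fit; the filled point is the only one with adjusted p under 0.05, Rpa2 in CD8. CD8 points lie mostly left of 0 and all CD4 points right of it.

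Whether the KO effect differed between CD8 and CD4 was tested directly. The difference, CD8 minus CD4, was below 0 for 33 of the 34 genes, with a median of -0.39 beside 0.00194 over all tested genes, and 48.3% of all tested genes were below 0. By edgeR 0 of the 34 passed, beside 0% of all tested genes, with a lowest adjusted p of 0.0650. By DESeq2 2 of them passed, among 130 of all genes, and by limma-voom 0, among 0 of all genes. Those 2 were Lig1, at -0.69 (SE 0.16, adjusted p = 0.065) by edgeR, and Rpa2, at -0.64 (SE 0.15, adjusted p = 0.065) by edgeR. Chaf1a had the lowest difference, -0.76 (SE 0.23, adjusted p = 0.103), and Mcm4 the only one above 0, 0.16 (SE 0.30, adjusted p = 0.851). Between Treg and CD4, and between Treg and CD8, 0 genes passed by each of the 3 tools. Treg minus CD4 was above 0 for 5 genes and below for 29 (50.3% and 49.7% of all tested genes; median -0.20), and Treg minus CD8 above for 26 and below for 8 (48.2% and 51.8%; median 0.22).

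The levels of genes of other cells are given beside these values. In CD8 libraries the 11 B cell markers summed to 4724, 4186 and 5788 CPM in KO, against 2677, 3092 and 4594 CPM in WT libraries, with 11 of 11 log2 fold changes above 0 and 0 past the threshold. In CD4 libraries they summed to 3206, 4401 and 3435 CPM in KO, against 6538, 3631 and 4537 CPM in WT libraries, with 11 of 11 below 0 and 0 past the threshold. The list of T cell genes went the other way, with 9 of 9 below 0 in CD8 (median -0.34) and 9 of 9 above 0 in CD4 (median 0.30). With the hemoglobin level as a covariate the median of the replication genes was -0.0197 in CD8 and 0.09 in CD4. Scaled to T cell receptor and CD3 counts it was 0.18 in CD8 and -0.0703 in CD4, where the median over all tested genes was 0.38 and -0.27. Beyond these values the part of other cells in the KO differences was not tested.

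The last comparison sets CD8 against CD4 libraries, where few of these genes passed. In WT libraries 30 of the 34 were above 0 in CD8 against CD4 (beside 46.5% of all tested genes; median 0.28, beside -0.00788 over all tested genes), 13 without overlap (beside 11.1%), and 2 were higher and 0 lower, beside 3.49% and 1.88% of all tested genes. In KO libraries 28 of the 34 were below 0 (beside 44.5%; median -0.16, beside 0.02), 6 without overlap (beside 8.99%), and 0 were higher and 1 lower, beside 1.37% and 2.21%. The 2 higher genes were Ccne1, at 0.59 (SE 0.15, adjusted p = 0.0137), and Rpa2, at 0.55 (SE 0.11, adjusted p = 0.00111), whose WT groups do not overlap in the values given above. In KO libraries Ccne1 was at 0.33 (SE 0.14, adjusted p = 0.248) and Rpa2 at -0.09 (SE 0.11, adjusted p = 0.758). The gene that was lower in KO libraries was Lig1, at -0.43 (SE 0.11, adjusted p = 0.0218), and it was at 0.27 (SE 0.11, adjusted p = 0.165) in WT libraries.

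Rpa2 stayed past the threshold in WT whichever library was left out. Ccne1 was no longer past the threshold without CD8 WT replicate 1 (adjusted p = 0.105) or CD4 WT replicate 2 (0.0576), and Lig1 without CD8 KO replicate 1 (0.0584), CD8 KO replicate 3 (0.184), CD4 KO replicate 1 (0.121) or CD4 KO replicate 3 (0.145). In the WT comparison 8 of the 34 were higher without CD8 WT replicate 3, where 1265 of all genes were called in either direction in place of 682, and 4 without CD4 WT replicate 2, where 873 were called. In the same comparison Mcm4 was lower without CD4 WT replicate 1 (adjusted p = 0.0233). B cell markers were the lower ones in CD8 WT against CD4 WT, 11 of 11 below 0, and the higher ones in CD8 KO against CD4 KO, 11 of 11 above 0, with 0 past the threshold in both. Their part in the differences between CD8 and CD4 was not tested.

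Of the 34 genes, 14 share their span with another annotated gene, among them Mcm7 with Cops6 and Ap4m1, Lig1 with Zswim9, Cdc45 with Ufd1, Fen1 with Tmem258, Chaf1a with Ubxn6 and Rfc4 with Eif4a2, all on the opposite strand. Cdt1 with Gm20388, Chaf1b with Gm49617 and Pole with Gm15791 share theirs on the same strand. The strand setting of the counting is not given in the sources used here, so reads of opposite-strand neighbours cannot be told apart from theirs. For same-strand neighbours no strand setting would part the reads.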

How the data were processed

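Counts of 18 libraries were analysed, 3 for each genotype of Treg, CD8 and CD4 cells. QuantSeq 3' FWD libraries, which read the 3' ends of transcripts and carry unique molecular identifiers, were made from 500 ng of RNA, per the labels' protocols. The authors deposited raw counts for each Ensembl gene, not normalized. The submitters' processing notes name STAR 2.5.3a, Subread 2.0.0, featureCounts, UMI-tools 1.0.0, cutadapt 2.10 and FastQC, and the build GRCm38 (mm10). How multi-mapping reads and strand were handled is not given in the sources used here. Counts on 3' tags compare a gene between libraries, not genes with each other.

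Genes were kept by filterByExpr at a minimum count of 10 (12693 of 30423 genes with a count), scaled by TMM and fitted in R 4.3.3 with edgeR 4.0.16 (glmQLFit, robust) on 6 group means over all 18 libraries (12 residual degrees of freedom). Contrasts were tested with glmQLFTest over all tested genes, with Benjamini-Hochberg adjusted p under 0.05 as the threshold. The SE is the log2 fold change over the square root of its F value. The scripts were tested on simulated data. A permutation test of 3 against 3 cannot go below 0.1 and was not used. Near-identical replicates were found by a chi-square test of their counts, using genes whose counts summed to at least 20.

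The genes and lists were chosen with earlier results of these data known. Values in every library are given for genes past the threshold between KO and WT, for the gene with the most counts of each role, and for the extremes of each comparison; of other lists, up to 3 genes per direction. Alternatives were other scalings, no filter, DESeq2 1.42.0, limma-voom (limma 3.58.1), fits on fewer libraries, summed near-identical pairs, a replicate block and a hemoglobin covariate; scaling to T cell receptor and CD3 counts was added after seeing the data. Promoter windows are RefSeq's for GRCm38.p6.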

Additional observations from a re-analysis of the deposited data

How the results depend on the processing

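In the Treg comparisons the counts of lower genes stayed within 1.5 times of those reported under all alternatives. The 1 higher gene, against CD4 WT, was 0 with total counts only and with no filter, and 0 to 1 when a library was left out. The median moved to -1.95 against CD4 KO with no filter, to -2.04 with total counts only and -2.10 with no filter against CD8 WT (-1.92 to -1.77 when a library was left out), and to -1.67 and -1.75 against CD8 KO. For KO against WT in CD8, the 1 lower gene became 2 with no filter and with DESeq2, and 0 with the compared libraries alone, with summed pairs, with the hemoglobin covariate and scaled to T cell receptor and CD3 counts; leaving out a library gave 0 to 4 (0 without CD8 WT replicate 1, CD8 WT replicate 2 or CD8 KO replicate 3, 2 without CD8 KO replicate 2, and 4 without CD8 WT replicate 3). Calls over all genes, 21 in the main analysis, were 447 with no filter, 72 with DESeq2, 61 without CD8 KO replicate 2 and 646 without CD8 WT replicate 3. They were 0 with the compared libraries alone, 1 with summed pairs, 4 with the hemoglobin covariate and 0 with T cell receptor scaling. Without CD8 WT replicate 1, CD8 WT replicate 2 or CD8 KO replicate 3 they were 8, 0 and 0. The CD8 median was -0.0197 with the hemoglobin covariate and 0.18 with T cell receptor scaling, which also gave -0.0703 in CD4 and -0.17 in Treg; this scaling moved the median of all genes to 0.38, -0.27 and -0.18. The KO effect in CD8 minus CD4 had 0 lower genes in the main analysis, 6 with no filter, 2 with DESeq2 and 0 to 7 when a library was left out (7 without CD8 WT replicate 3, 5 without CD4 WT replicate 2, 3 without CD8 KO replicate 2 and 2 without CD4 KO replicate 2). Calls over all genes, 0 in the main analysis, were 602 with no filter, 130 with DESeq2, and 859, 613, 150 and 218 without those 4 libraries. They were 1263 when scaled to T cell receptor and CD3 counts. The median was -0.13 under the hemoglobin covariate and 0.26 under T cell receptor scaling, where the median of all genes was 0.65, so that of the 34 stayed below it. For Treg minus CD8, 1 gene was higher with no filter (46 called over all genes), and the median was -0.00727 under the hemoglobin covariate and -0.32 under T cell receptor scaling, where the median of all genes was -0.57, so that of the 34 stayed above it. CD8 against CD4 in WT had 2 higher genes, 6 with no filter, 1 with DESeq2, 0 with the compared libraries alone and 1 to 8 when a library was left out, with 0 to 1 lower. Calls over all genes there, 682 in the main analysis, were 963, 415, 226 and 306 to 1265 in the same order. In KO the 1 lower gene became 0 to 2. Calls over all genes in KO, 455 in the main analysis, were 693, 316, 525 and 288 to 458 in that order. The cause of these changes was not tested.

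Deviations of same-numbered replicates correlated at -0.34 to 0.31, and in no comparison were all 3 pairs over 0.1, the bar set for pairing, so the numbers were not taken to pair the libraries. With the replicate block, KO against WT in CD8 called 12 genes in all in place of 21, still 1 of the 34 lower, and the number of replication genes lower in Treg against CD8 KO was 32. All 3 pairs were above 0 in Treg against CD4 KO (0.03 to 0.05, 3 of 3 best with their own number) and in KO against WT in CD8 (0.002 to 0.31), a hint from the data, not the design. Depth limits the low genes: 3 counts were 2.87 to 3.89 CPM in Treg libraries, where Cdc45 had 3 to 11 and Mcm10 had 4 to 15 counts.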

Other observations

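Between CD8 and CD4 libraries, some genes of the other lists passed the threshold. Those named here are up to 3 per list and direction and do not give how many of a list passed. Of all tested genes, 3.49% were called higher and 1.88% lower in CD8 in WT libraries, and 1.37% and 2.21% in KO libraries. Cdk6, a D-type cyclin partner, was higher in CD8 in WT libraries, with the log2 value 0.96 (SE 0.14, adjusted p = 7.69e-05), and in KO libraries, at 0.48 (SE 0.14, adjusted p = 0.0485), by edgeR. Cdkn1a, the p21 inhibitor, was at 0.95 (SE 0.18, adjusted p = 0.00434) and Ccnd2, cyclin D2, at 0.28 (SE 0.07, adjusted p = 0.0202) in WT libraries. Rfc3, a clamp loader subunit beside Rfc4, was at 0.69 (SE 0.13, adjusted p = 0.000959), and Nasp, a histone chaperone, at 0.38 (SE 0.11, adjusted p = 0.0338) in the same comparison. In the other direction, Samhd1 was lower in CD8 there, at -0.45 (SE 0.12, adjusted p = 0.0258) by edgeR. Top2a, the topoisomerase of S and M phase, was lower in CD8 KO than in CD4 KO, at -0.57 (SE 0.11, adjusted p = 0.000928).

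Ccnd1, cyclin D1, which resting and cycling lymphocytes hardly express, had 13.4, 3.83 and 14.7 CPM in Treg KO and 18.1, 12.3 and 12.4 CPM in Treg WT libraries, from 4 to 14 counts each. It had 3.79, 1.03 and 0 CPM in CD8 KO and 0.502, 2.04 and 0.989 CPM in CD8 WT libraries, and 0, 0.523 and 0.936 CPM in CD4 KO and 0.729, 0.483 and 0 CPM in CD4 WT libraries. Every Treg library lay above every other library, Treg KO replicate 2 and CD8 KO replicate 1 being nearly level. Rrm2b, the ribonucleotide reductase subunit used outside S phase, had 20.7, 29.7 and 30.7 CPM in Treg KO, against 15.7, 13.6 and 15.4 CPM in CD4 KO libraries, with the log2 value 0.86 (SE 0.24, adjusted p = 0.00423), opposite in sign to that of Rrm2.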
